A study of Mus musculus with 4 samples.

Results

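Pcbp1 chromatin immunoprecipitation sequencing (ChIP-seq) placed 458 of 15626 called peaks at the ends of long noncoding RNA (lncRNA) genes that lie away from protein-coding gene ends. A peak was taken when its summit lay within 1 kb of an annotated end of a RefSeq lncRNA gene on mm10 and more than 5 kb from every protein-coding gene end. By this rule 105 of 3494 peaks of the EpiLC list (3.01%, 95% exact binomial interval 2.46 to 3.63) and 353 of 12132 peaks of the Naive list (2.91%, 2.62 to 3.22) were stand-alone lncRNA peaks. They were chosen by the summit positions of called peaks, so that a lncRNA below has a peak is a description and carries no test. All cells were of the E14 Tg2a mouse embryonic stem cell line. Primed epiblast-like cells (EpiLC) came from the naive culture after 48 hours on fibronectin in N2B27 with bFGF (12 ng/ml), Activin A (20 ng/ml) and KOSR, a serum replacement. Naive cells had been kept for 3 passages in serum-free N2B27 with LIF, the MEK inhibitor PD0325901 (1 uM) and the GSK3 inhibitor CHIR99021 (3 uM). There was 1 ChIP and 1 input library for each condition, and each list came from the ChIP of its condition. The values below are therefore those of a single library on each side, with no replicate error and no test between conditions.

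Long noncoding RNAs are transcribed and often spliced like messenger RNAs but are not translated into known proteins. Some act on chromatin or on nuclear bodies, others serve mainly as precursors of small nucleolar RNAs (snoRNAs) or microRNAs (miRNAs), and for many no function is known. Pcbp1 is a KH-domain protein that binds cytosine-rich single strands of RNA and DNA and takes part in transcription, splicing, messenger RNA stability and translation. In embryonic stem cells, several lncRNAs are known to be transcribed mainly in the pluripotent state. A ChIP peak marks cross-linked DNA, so these data measure neither the RNA of a lncRNA nor binding of Pcbp1 to it.

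RefSeq promoter windows (GRCm38.p6, from 250 bases before the transcript start to 50 after it, on the strand of the gene) are shown for 5 lncRNA genes whose window holds a summit. They cover the highest Naive peak (4931429P17Rik, chr13:48018559-48018858, minus strand) and a peak found in both lists (Gm29908, chr16:72662988-72663287, minus strand). They also cover a strong peak of the EpiLC list alone (Gm51458, chr7:127636864-127637163, plus strand) and peaks of the Naive list alone at a pluripotency-associated lncRNA (Platr26, chr2:71719167-71719466, plus strand) and at a snoRNA host (Snhg20, chr11:117076533-117076832, plus strand). Capitals mark CpG dinucleotides, of which the windows hold 3, 20, 19, 5 and 25 in that order.
4931429P17Rik: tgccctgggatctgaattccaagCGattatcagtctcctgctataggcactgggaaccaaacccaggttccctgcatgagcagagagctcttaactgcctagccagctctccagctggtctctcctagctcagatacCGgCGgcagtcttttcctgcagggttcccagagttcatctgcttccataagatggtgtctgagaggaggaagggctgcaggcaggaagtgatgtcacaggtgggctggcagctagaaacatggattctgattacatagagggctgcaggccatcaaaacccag
Gm29908: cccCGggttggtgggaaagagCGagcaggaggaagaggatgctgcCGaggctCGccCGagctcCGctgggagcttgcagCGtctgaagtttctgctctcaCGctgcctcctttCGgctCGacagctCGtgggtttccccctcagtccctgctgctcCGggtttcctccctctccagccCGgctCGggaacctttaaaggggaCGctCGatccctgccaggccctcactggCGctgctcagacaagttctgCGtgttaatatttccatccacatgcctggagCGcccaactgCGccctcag
Gm51458: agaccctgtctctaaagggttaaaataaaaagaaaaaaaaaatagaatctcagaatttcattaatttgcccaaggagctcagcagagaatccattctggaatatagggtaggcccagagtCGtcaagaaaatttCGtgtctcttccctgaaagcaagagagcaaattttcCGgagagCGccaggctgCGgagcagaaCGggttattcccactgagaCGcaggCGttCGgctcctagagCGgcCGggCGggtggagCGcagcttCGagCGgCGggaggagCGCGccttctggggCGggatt
Platr26: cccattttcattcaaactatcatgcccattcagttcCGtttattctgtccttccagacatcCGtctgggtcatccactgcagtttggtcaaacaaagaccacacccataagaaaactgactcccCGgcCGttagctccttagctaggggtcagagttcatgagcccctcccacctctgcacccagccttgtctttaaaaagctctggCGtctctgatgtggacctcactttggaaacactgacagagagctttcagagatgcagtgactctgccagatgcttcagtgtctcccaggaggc
Snhg20: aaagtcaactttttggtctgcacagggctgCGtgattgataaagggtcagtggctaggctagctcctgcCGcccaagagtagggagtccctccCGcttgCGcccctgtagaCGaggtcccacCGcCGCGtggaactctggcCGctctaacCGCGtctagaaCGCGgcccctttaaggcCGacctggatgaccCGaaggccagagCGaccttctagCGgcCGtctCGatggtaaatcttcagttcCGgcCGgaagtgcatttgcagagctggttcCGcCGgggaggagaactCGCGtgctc

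The series as a whole sets the scale for the lncRNA peaks. The EpiLC list had the higher genome-wide background, 7.43 against 4.004 in Naive, taken as the lowest background solved from the peaks. Read totals are not known, so this value does not settle which library was deeper. Deposited fold enrichment, the ratio of the pileup of fragments at the summit to the caller's background, had a median of 3.41 over all EpiLC peaks and of 4.43 over all Naive peaks. The part of this difference in background, or of a difference in depth, in the results below was not tested. Where a list has no peak, Pcbp1 may still have been present below the calling threshold.

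Their median fold was 3.67 in EpiLC (quartiles 3.06 and 4.75, highest 9.17) and 4.40 in Naive (3.79 and 5.31, highest 12.5). Folds reached 5 or more at 23 of the 105 EpiLC peaks (21.9%, against 12.4% of all EpiLC peaks) and at 111 of the 353 Naive peaks (31.4%, against 32.8% of all Naive peaks). Median widths were 317 bp in EpiLC and 362 bp in Naive, against 308 bp and 362 bp over all peaks of these lists, and the median summit pileup was 50 against 24. Neither list held a stand-alone lncRNA peak near the height of its strongest peaks, which reached 26.8 in EpiLC and 44.96 in Naive.

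Of 12727 lncRNA genes with a position, 11402 had an end more than 5 kb from every protein-coding gene end and could hold such a peak. A peak lay at 104 of them in EpiLC (0.912%) and at 324 in Naive (2.84%), which made 380 genes in all. Protein-coding genes had a summit within 1 kb of an end more often, at 5.61% in EpiLC and 19.3% in Naive. That count set no distance from other genes, unlike the lncRNA count, so these shares rest on unlike rules. Counting only summits that met the rule, peaks were found at 48 lncRNA genes in both lists, at 56 in EpiLC alone and at 276 in Naive alone. A gene counted in 1 list alone can still have a peak of the other list whose summit missed the rule. At 2410080I02Rik, counted in EpiLC alone, such a Naive peak had a fold of 14.3. Most of the 380 genes are poorly known: 339 carry provisional symbols (Gm, Rik or LOC) and 41 have another symbol.

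The name stand-alone refers to gene ends only. The summit lay inside the body of a protein-coding gene for 33 of 105 EpiLC peaks (31.4%, 22.7 to 41.2) and for 83 of 353 Naive peaks (23.5%, 19.2 to 28.3). Over all peaks the shares were 47.1% and 49.98%, but these include peaks at protein-coding gene ends, which the rule leaves out. Peaks at those ends lay inside a gene body in 63.7% of cases in EpiLC and 67.9% in Naive. Among peaks away from all gene ends the shares were 33.8% in EpiLC and 39.0% in Naive. For such a peak the lncRNA and the protein-coding gene around it cannot be told apart. The distance to the nearest protein-coding gene end had a median of 23745 bp in EpiLC and 25489 bp in Naive, and exceeded 100 kb for 12 and 56 peaks. A small RNA gene end lay within 1 kb of 6 EpiLC summits (5.71%, against 3.89% of all EpiLC peaks) and of 19 Naive summits (5.38%, against 1.85% of all Naive peaks). In addition, 3 EpiLC and 11 Naive summits lay at the ends of more than 1 lncRNA gene.

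**Figure D1:**
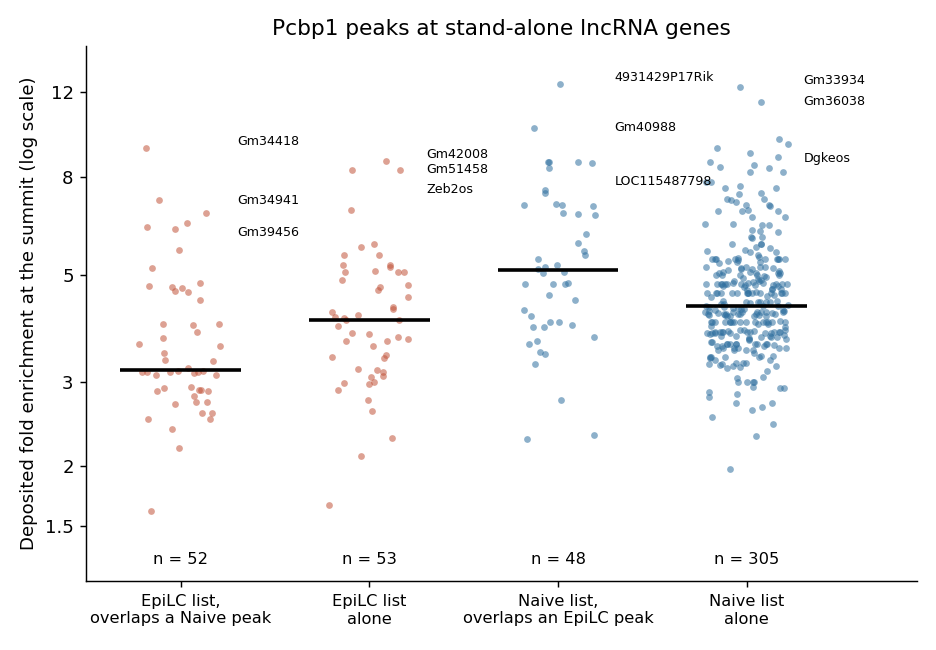
Deposited fold enrichment (log scale) of every stand-alone lncRNA peak, in EpiLC (left, red) and Naive (right, blue), split by whether the peak overlapped one of the other list; each point is 1 peak, bars are medians and the 3 highest of each column are named. The medians are 3.18 and 4.03 for EpiLC peaks with and without an overlap, and 5.11 and 4.32 for Naive peaks.

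The highest EpiLC peak (chromosome 11, 117483250 to 117483663) lay 416 bp from an end of Gm34418 and also within 1 kb of an end of Gm11733, with a fold of 9.17 (95% Poisson counting interval 7.40 to 11.3). Gm42008 followed at 8.63 (6.80 to 10.8), inside Cit, which encodes a kinase of cytokinesis. Gm51458, whose window is shown above, had 8.29 (6.68 to 10.2), with the summit 114 bp before its start and 21215 bp from the zinc finger gene Zfp629. The peak at Zeb2os (chromosome 2, 45111029 to 45111398) had 8.26 (6.47 to 10.4) and lay inside Zeb2, a repressor known for its part in epithelial-mesenchymal transition. Of these 4 peaks, the first overlapped a Naive peak and the other 3 had no counterpart in the Naive list.

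Next in EpiLC came Gm34941, 39655 bp from Sox2, the core pluripotency factor, with a fold of 7.16 (5.80 to 8.75). Gm33616, 8079 bp from the ribosomal protein gene Rpl29, had 6.82 (5.40 to 8.50) and a weaker peak of 4.02 beyond its end. The list of the 12 highest continued with Gm39456 (6.72), E230001N04Rik (6.40), Gm32139 in the potassium channel gene Kcnn2 (6.30) and 2700038G22Rik (6.25). It closed with Gm41694 in the neuregulin gene Nrg2 (5.81) and Gm35655 in Tgfb2, which encodes a TGF-beta ligand (5.72). Of these 12 peaks, 6 overlapped a Naive peak, 5 lay inside a protein-coding gene, and 7 were nearest to the annotated start of their lncRNA. No strand was annotated for Zeb2os, Gm34941, Gm32139 and Gm41694, so their end type is not known.

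In Naive the highest peak was that of 4931429P17Rik (chromosome 13, 48018637 to 48019033), with a fold of 12.5 (9.75 to 15.8). Its summit lay 203 bp before the start shown above, and the nearest protein-coding gene end, that of Id4, was 242305 bp away. Gm33934 had 12.3 (9.67 to 15.4), inside Pdzrn3, a ubiquitin ligase gene. Gm36038 had 11.5 (8.79 to 14.8), with its summit 18823 bp from Tfap2c, which encodes an AP-2 transcription factor known from trophoblast and germ cells. The peaks at Gm33934 and Gm36038 had no counterpart in EpiLC, while that at 4931429P17Rik overlapped an EpiLC peak.

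The other Naive peaks among the 12 highest were at Gm40988 (10.1), Dgkeos (9.60), Gm51448 in the neuron navigator gene Nav2 (9.39), 1700012D14Rik (9.19) and Gm35891 (8.99). Gm40478 in the transporter gene Flvcr2 (8.82), LOC115487798 in Tex14 (8.61), Gm36540 (8.60) and Gm29908 in the axon guidance receptor gene Robo1 (8.59) completed them. Snhg4 had the same fold as Gm29908 and was left out only by the order of peak names. Of these 12 peaks, 4 overlapped an EpiLC peak, 5 lay inside a protein-coding gene and 5 were nearest to a start. No strand was annotated for 1700012D14Rik and Gm36540. The summit at LOC115487798 also lay within 1 kb of the small RNA gene Rnu3b1. Gm40988 lay where the local background was 3.20 times the genome-wide one, and its EpiLC counterpart where it was 8.05 times.

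An overlap of at least 1 bp with a peak of the other list was found for 52 of the 105 EpiLC peaks (49.5%, 39.6 to 59.5) and for 48 of the 353 Naive peaks (13.6%, 10.2 to 17.6). Over all peaks these shares were 48.3% in EpiLC and 13.7% in Naive, so the lncRNA peaks overlapped about as often as any peak. At protein-coding gene ends the shares were higher, 66.7% in EpiLC and 18.5% in Naive. Away from all gene ends they were 40.1% in EpiLC and 11.2% in Naive. Among Naive lncRNA peaks, those that overlapped an EpiLC peak had the higher median fold (5.11, against 4.32 for those in the Naive list alone). Among EpiLC lncRNA peaks the order of the folds was opposite, with 3.18 for peaks that overlapped a Naive peak and 4.03 for peaks in the EpiLC list alone. Their median summit pileup did not follow that order, at 54 with an overlap and 46 without. The median local background was 1.91 and 1.37 times the genome-wide one.

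The overlaps made 53 pairs of an EpiLC and a Naive peak. In 47 pairs both summits met the distance rule, in 5 only the EpiLC summit did and in 1 only the Naive summit. Summits lay close together, with a median gap of 68 bp and 40 pairs within 100 bp. The median ratio of the EpiLC fold to the Naive fold was 0.729 (0.604 to 0.826, over pairs), against 0.674 over all 1704 overlapping pairs of the lists. The ratio was below 1 in 49 pairs and above 1 in 4 (7.55%, against 14.7% of all pairs). It was at most 1/1.5 in 22 pairs, against 49.1% of all pairs, and at least 1.5 in 1 pair, against 1.94% of all pairs. With pileups divided by the genome-wide background in place of folds, the median was 0.924 for lncRNA pairs and 0.907 for all pairs. The ratio then lay above 1 in 20 lncRNA pairs (37.7%, against 36.4% of all pairs). It was at most 1/1.5 in 5, against 13.6% of all pairs, and at least 1.5 in 1, against 4.99% of all pairs. EpiLC was the lower on both scales in 32 lncRNA pairs (60.4%, against 60.9% of all pairs). The direction at many single lncRNAs therefore turns on the scale, and the ratios below are to be read beside these medians.

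**Figure D2:**
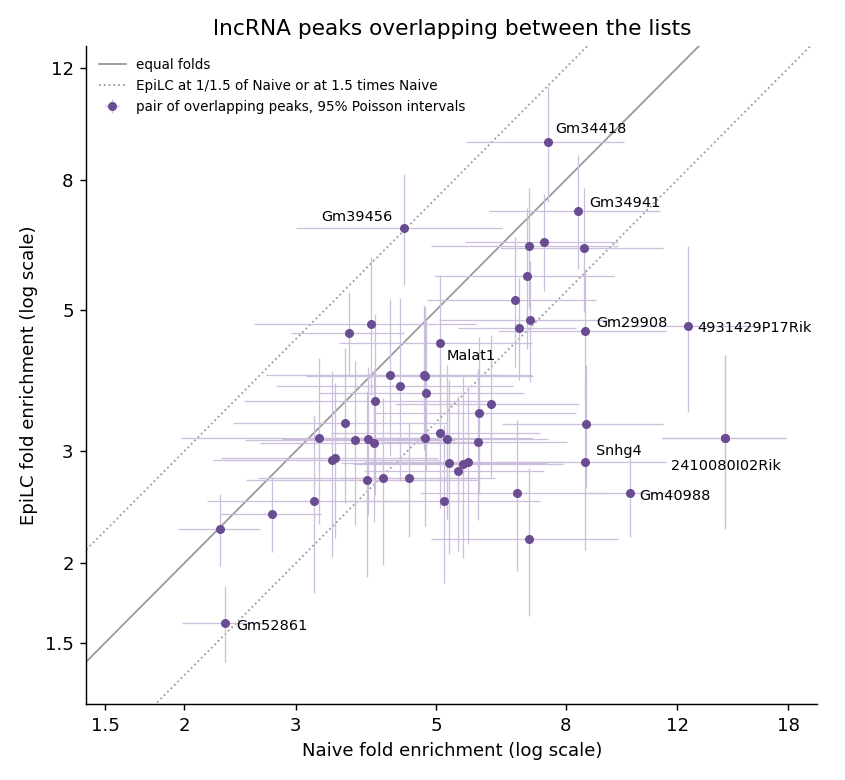
EpiLC fold (vertical, log scale) against Naive fold (horizontal, log scale) for the 53 overlapping pairs at stand-alone lncRNA genes, with 95% Poisson intervals; the solid line marks equal folds and the dotted lines a ratio of 1.5 either way. Most points lie below the solid line, with Gm39456 farthest above it and 2410080I02Rik, Gm40988, Snhg4 and 4931429P17Rik among those farthest below.

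Ranked by the lower fold, the strongest pair was Gm34418, with 9.17 in EpiLC and 7.51 in Naive. At Gm34941 near Sox2 the folds were 7.16 in EpiLC and 8.37 in Naive, at summits 13 bp apart. E230001N04Rik had 6.40 in EpiLC and 7.40 in Naive, and Gm32139 had 6.30 in EpiLC and 6.99 in Naive. The counting intervals of the ratio include 1 at all 4 of these lncRNAs, and on the scaled pileups each ratio is above 1 (1.01, 1.24, 1.34 and 1.32). Further pairs were 2700038G22Rik (6.25 in EpiLC, 8.57 in Naive), Gm32491 (5.65 in EpiLC, 6.96 in Naive), AI463170 (5.18 in EpiLC, 6.65 in Naive) and D230017M19Rik (4.82 in EpiLC, 7.04 in Naive). Gm46796 had 4.69 in EpiLC and 6.74 in Naive, and the interval of this ratio lay below 1 (0.696, 0.522 to 0.930). The local background at Gm46796 was 3.19 times the genome-wide one in EpiLC and 3.01 times in Naive.

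Gm39456 was the one pair past 1.5 in favour of EpiLC, with 6.72 in EpiLC and 4.45 in Naive. Its ratio of 1.51 had a counting interval of 0.985 to 2.39, which includes 1. No lncRNA pair had an interval above 1, against 1.53% of all pairs, and 20 had one below 1, against 42.7% of all pairs. The ratio at 4931429P17Rik was 0.377 (0.252 to 0.559), with 4.72 in EpiLC and 12.5 in Naive, and Gm29908 had 4.63 in EpiLC and 8.59 in Naive (0.539, 0.364 to 0.807). The lowest ratios, picked out after their values were seen, were those of 2 EpiLC peaks at 2410080I02Rik, of 3.15 and 3.14, which overlapped 1 Naive peak of 14.3 whose own summit did not meet the distance rule. That Naive peak was 1821 bp wide, with its summit 1126 and 761 bp from the EpiLC summits, so these ratios compare different positions. On the scaled pileups the 5 pairs at or below 1/1.5 were the 2 at 2410080I02Rik (0.283 and 0.276), which share 1 Naive peak, 4931429P17Rik (0.349), Snhg4 (0.539) and Gm40988 (0.605). All 5 were at most 1/1.5 on both scales.

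Strand was annotated for the lncRNA gene end at 87 EpiLC and 276 Naive peaks. The nearest end was the start of the gene for 64 of these in EpiLC (73.6%, 63.0 to 82.4) and for 191 in Naive (69.2%, 63.4 to 74.6), and the far end for 23 and 85. An annotated transcript start lay within 1 kb of 63 EpiLC and 193 Naive summits, and within 250 bp of 29 and 87. Among the summits within 1 kb, 25 lay upstream and 38 downstream of the start in EpiLC, and 94 upstream and 98 downstream in Naive. The median offset was 90 bp downstream in EpiLC and 11 bp downstream in Naive. Both distributions are broad beside the labelled fragment size of about 500 bp, and most summits lie outside the 300-base windows, which held 13 EpiLC and 48 Naive summits.

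**Figure D3:**
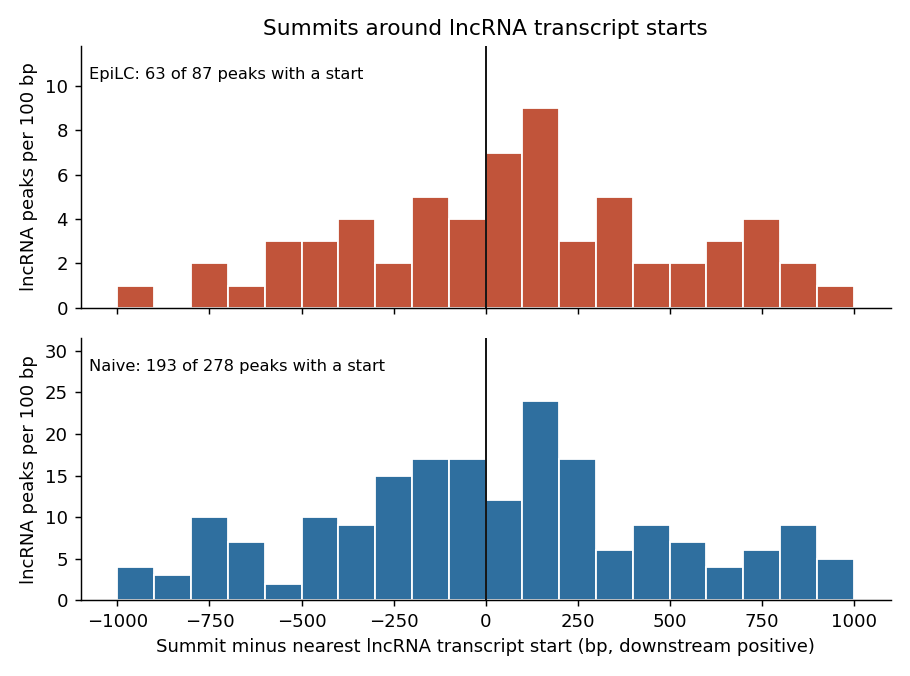
Number of stand-alone lncRNA peaks per 100 bp by the position of the summit relative to the nearest annotated lncRNA transcript start (downstream positive), in EpiLC (top) and Naive (bottom). Counts are highest within 250 bp of the start and spread over the whole kilobase on both sides.

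Promoter windows next to the peaks held more CpG than those of lncRNA genes at large. Windows with a start within 1 kb of a summit numbered 60 in EpiLC and 176 in Naive, and were set beside 10441 windows of stand-alone lncRNA genes and 21263 of protein-coding genes. The median number of CpG per window was 11.5 in EpiLC and 7 in Naive, against 4 for stand-alone lncRNA genes and 13 for protein-coding genes. At least 10 CpG were found in 60.0% of EpiLC windows (46.5 to 72.4) and 40.9% of Naive windows (33.6 to 48.6), against 15.2% of stand-alone lncRNA genes and 56.8% of protein-coding genes. Median GC content was 54.8% in EpiLC and 52.8% in Naive, against 48.0% and 56.3% in the same background sets. Windows at peaks found in both lists had the most CpG, with a median of 15 among EpiLC peaks and 16 among Naive peaks. Windows at peaks of 1 list had 9.5 in EpiLC alone and 7 in Naive alone. The windows shown above span this range, with few CpG at 4931429P17Rik and Platr26 and many at Gm29908, Gm51458 and Snhg20.

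**Figure D4:**
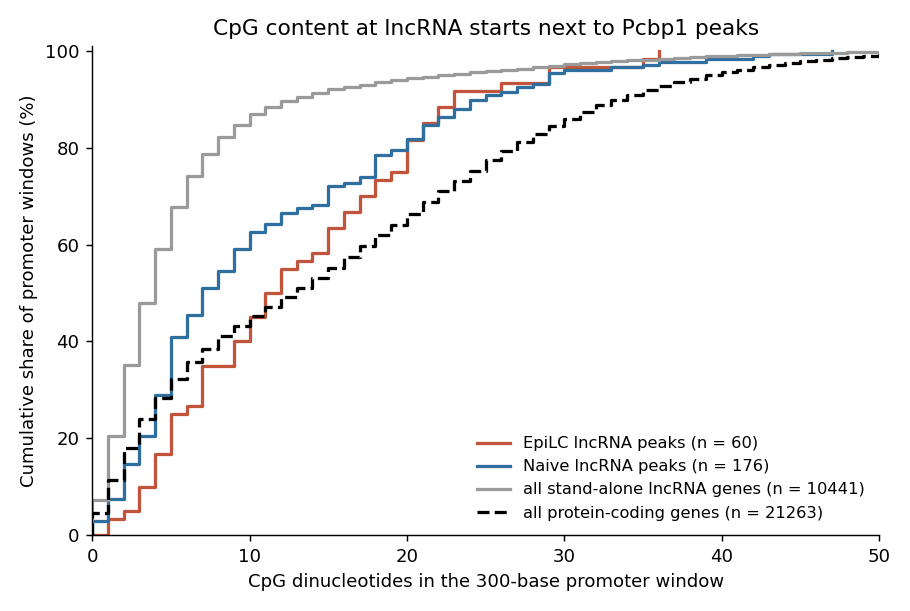
Cumulative share of promoter windows (percent) by the number of CpG dinucleotides in the 300-base window, for windows with a start within 1 kb of an EpiLC (red) or Naive (blue) lncRNA peak, all stand-alone lncRNA genes (grey) and all protein-coding genes (dashed). The medians are 11.5, 7, 4 and 13.

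Letter runs were counted in the same windows on both strands. A run of 5 cytosines (CCCCC), the kind of sequence Pcbp1 is known to bind, was found in 61.7% of EpiLC windows (48.2 to 73.9) and 47.7% of Naive windows (40.2 to 55.4), against 42.2% of stand-alone lncRNA genes and 54.9% of protein-coding genes. It was present in 76.7% of windows at peaks of the EpiLC list alone (57.7 to 90.1, n = 30) and in 48.4% at EpiLC peaks that overlapped a Naive peak (30.2 to 66.9, n = 31). In Naive the shares were 47.7% for peaks of that list alone and 15 of 30 windows for overlapping peaks. Most summits lay up to 1 kb away, outside these windows. Among windows that held a summit, CCCCC was in 9 of 13 in EpiLC (69.2%, 38.6 to 90.9). In Naive it was in 21 of 48 such windows (43.8%, 29.5 to 58.8), near the share of stand-alone lncRNA genes. The GC box CCGCCC was in 41.7% of EpiLC and 35.2% of Naive windows, against 13.4% of stand-alone lncRNA genes and 46.2% of protein-coding genes. CCCTCC was in 40.0% and 42.0%, against 30.1% and 43.6%, and CTCCC, part of which overlaps CCCTCC, was in 71.7% and 74.4%, against 64.4% and 74.0%. TATAAA was in 8.33% of EpiLC and 12.5% of Naive windows, against 16.3% and 12.6%, and the E-box CACGTG was in 8.33% and 9.66%, against 5.69% and 7.84%. The letters of 3 further motifs (CCGGAAG, TGACGTCA and CCAAT) were added after the other counts were seen. CCGGAAG was in 3.33% of EpiLC and 9.66% of Naive windows, against 3.39% and 11.6% in those sets, the CRE letters TGACGTCA in 3 of 60 EpiLC and 4 of 176 Naive windows, against 0.881% and 2.23%, and CCAAT in 36.7% and 39.2%, against 36.3% and 38.2%. GC content and CpG number differ between these sets too, and their part in the motif counts was not tested. A match says only that the letters are there.

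Of the 7 lists of better known lncRNAs, that of the snoRNA hosts held the highest share of genes with a peak. These genes are spliced to release snoRNAs that guide the modification of ribosomal RNA. Of 19 hosts listed, 8 were stand-alone by the distance rule and 11 lay too near a protein-coding gene. A peak was found at 5 of the 8 in EpiLC (62.5%) and at 6 in Naive, beside 0.912% and 2.84% of all stand-alone lncRNA genes. Snhg5 had 3.45 (2.57 to 4.53) in EpiLC and 5.84 (3.98 to 8.30) in Naive. Snhg15 had 3.13 in EpiLC and 5.19 in Naive, Dancr had 2.79 in EpiLC and 5.41 in Naive, and Snhg17 had 2.72 in EpiLC and 4.11 in Naive. At Snhg4 the folds were 2.88 (2.09 to 3.87) in EpiLC and 8.59 (6.25 to 11.5) in Naive. Snhg4, Snhg5, Snhg17 and Dancr each had 2 Naive peaks, and the Naive folds given are those of the peak that overlapped the EpiLC one. All 5 folds are lower in EpiLC, but on the scaled pileups the ratio of EpiLC to Naive is 0.539 at Snhg4, 0.728 at Dancr, 0.910 at Snhg5, 1.06 at Snhg15 and 1.10 at Snhg17. Snhg20 had Naive peaks of 4.20 (2.78 to 6.13) and 3.71, and the first summit lay 132 bp before the start shown above. It had no stand-alone lncRNA peak in EpiLC.

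Of 6 abundant lncRNAs on a further list, 1 had a peak in EpiLC and 3 had one in Naive. Over all stand-alone lncRNA genes the shares were 0.912% in EpiLC and 2.84% in Naive. The list was drawn up under the name of nuclear lncRNAs, but where each of these RNAs lies in the cell was not tested. Malat1, a nuclear-speckle RNA (chromosome 19, gene 5795690 to 5802672), had 4.43 (3.41 to 5.67) in EpiLC and 5.06 (3.51 to 7.08) in Naive, at its start. Neat1, the scaffold of paraspeckles, had 3.70 (2.45 to 5.40) in Naive and no stand-alone lncRNA peak in EpiLC. Oip5os1, also called Cyrano, had 4.58 (2.98 to 6.78) in Naive and no stand-alone lncRNA peak in EpiLC. The Malat1 folds differ by less than their counting intervals.

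Pluripotency-associated lncRNAs, mostly the Platr transcripts of embryonic stem cells, had no peak in EpiLC and 5 genes with a peak in Naive, out of 22 (22.7%). Over all stand-alone lncRNA genes the shares were 0.912% in EpiLC and 2.84% in Naive. Beside so low an EpiLC share, the lack of an EpiLC peak among 22 genes shows little. Platr10 had Naive peaks of 5.60 (3.76 to 8.05) and 4.14, one at each end of the gene. Platr26 had 5.45 (3.80 to 7.59), 204 bp before its start. Platr22 had 4.85 (3.23 to 7.02), Platr4 had 4.60 and Platr3 had 2.66. None of these 5 genes had a stand-alone lncRNA peak in EpiLC, which had the shorter list and the higher genome-wide background.

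Of 10 miRNA hosts, none had a peak in EpiLC and 2 had one in Naive, beside the 0.912% and 2.84% of all stand-alone lncRNA genes. These were Mir22hg at 4.24 (2.75 to 6.27) and Dleu2, host of miR-16-1, at 5.40 (3.59 to 7.81). Of 14 lineage and Hox lncRNAs, 2 had a peak in EpiLC (14.3%) and 1 had one in Naive (7.14%). Pantr2, beside the neural gene Pou3f3, had 3.19 (2.21 to 4.46) in EpiLC, and Sox1ot, at the neural gene Sox1, had 3.08 (2.04 to 4.50). Bvht, a cardiac lncRNA, had 2.91 (1.79 to 4.51) in Naive. None of the 4 lncRNAs of X inactivation and none of the 8 imprinted lncRNAs on the lists had a stand-alone lncRNA peak in either condition, and these lists are short beside the 0.912% and 2.84% of all such genes with a peak. The imprinted list is also incomplete, since 8 of its 11 symbols were matched to a lncRNA gene. Igf2os, which was not on it, had an EpiLC peak of 3.91 (2.71 to 5.48) inside Igf2. That gene was named after its values were seen.

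**Figure D5:**
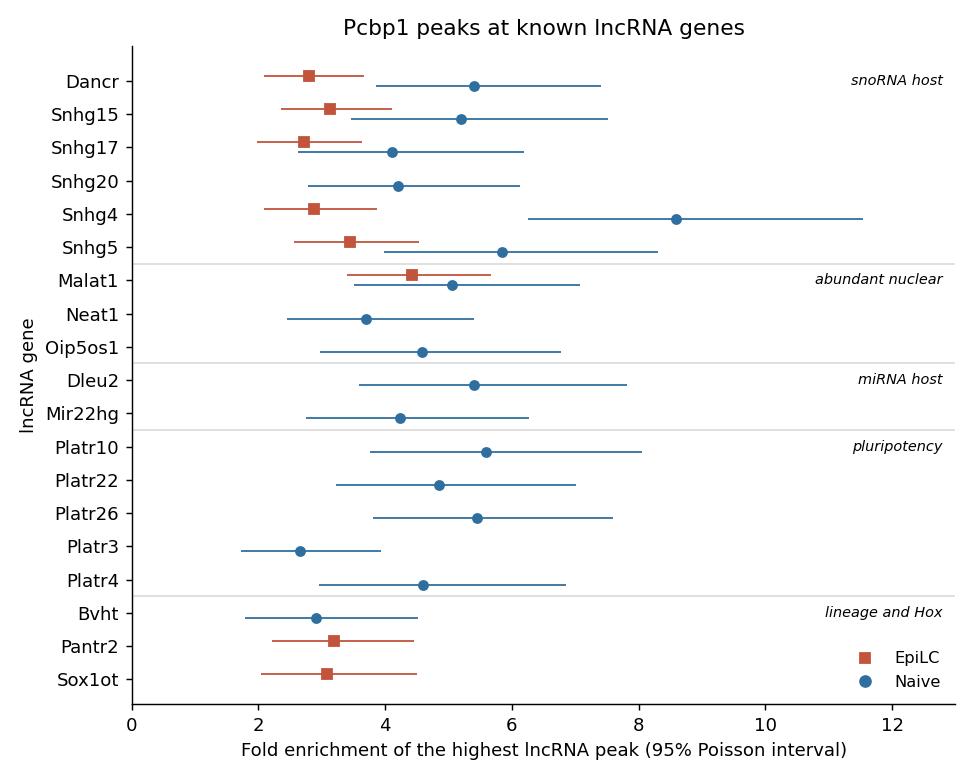
Deposited fold enrichment of the highest stand-alone lncRNA peak at each listed lncRNA gene (horizontal), with 95% Poisson intervals. EpiLC peaks are red squares and Naive peaks blue circles. A gene with 1 symbol had a stand-alone lncRNA peak in that list only. The snoRNA hosts, apart from Snhg20, and Malat1 have both symbols, and the 5 Platr genes have the Naive one only.

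Stand-alone lncRNA peaks within 50 kb of the gene body were counted for listed pluripotency genes. They were found for 0 of 24 naive pluripotency genes in EpiLC and for 1 in Naive (4.17%). They were found for 1 of 29 primed genes in EpiLC (3.45%) and none in Naive, and for 2 of 17 core genes in EpiLC (11.8%) and 3 in Naive (17.6%). Over all 21887 protein-coding genes the share was 0.726% in EpiLC and 2.3% in Naive. Sox2 was the one gene with a peak in both lists, that of Gm34941. In EpiLC, Gm36603 had 3.77 (2.89 to 4.83) at 7896 bp from Lef1, a mediator of Wnt signalling, and Gm31391 had 3.64 (2.78 to 4.69) inside Tcf7l1, a repressor of Wnt targets. In Naive, Gm39592 had 4.996 (3.27 to 7.34) at 9200 bp from Prdm14, a regulator of the naive state. Gm35208 had 4.27 in Naive at 45796 bp from Mycn, and Gm32362 had 2.91 (1.79 to 4.51) in Naive at 6140 bp from Pou5f1, which encodes Oct4. Nearness does not show which gene, if any, such a site acts on.

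A lncRNA over the miR-302 cluster, one of the miRNA clusters known from pluripotent cells, was picked out after its values were seen. Gm51018 (chromosome 3) had no stand-alone lncRNA peak in EpiLC and a Naive peak of 4.80 (3.11 to 7.10). Its summit lay 291 bp from the gene end and 430 to 935 bp from the hairpins of Mir302b, Mir302c, Mir302a, Mir302d and Mir367, all inside the lncRNA, and also inside the protein-coding gene Larp7. The mature miRNAs are shown from RefSeq with the seed (bases 2 to 8) in capitals, since the cluster is known for the seed that most of its miRNAs share.
miR-302b-3p: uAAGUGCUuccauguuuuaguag
miR-302d-3p: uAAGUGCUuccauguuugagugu
miR-302c-3p: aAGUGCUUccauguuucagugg
miR-367-3p: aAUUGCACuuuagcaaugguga
The seeds of miR-302b-3p and miR-302d-3p are identical, that of miR-302c-3p is the same run moved by 1 base, and that of miR-367-3p differs. Mirc35hg, host of Mir182, Mir96 and Mir183, was also picked out after its values were seen and had 2.70 (1.90 to 3.72) and 2.61 in EpiLC and 3.89 (2.50 to 5.80) in Naive.

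At 2 lncRNA genes there were 3 peaks in 1 list, both in Naive. Gm53, beside Hoxb9 in the HoxB cluster, had 3.84 (2.56 to 5.56), 2.92 and 2.70, all within 1 kb of the same end. 5330411J11Rik, near the junction protein gene Pkp4, had 3.83 (2.51 to 5.63), 3.79 and 3.15. Neither had a stand-alone lncRNA peak in EpiLC. Trp53cor1, the p53-induced lncRNA beside Cdkn1a, had a Naive peak at each end, of 8.47 (6.33 to 11.1) and 2.99 (1.88 to 4.54). It shares the first with Gm41556 and had no stand-alone lncRNA peak in EpiLC. It was named after its values were seen.

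The local background was more than 3 times the genome-wide one at 11 EpiLC lncRNA peaks (10.5%, against 9.39% of all EpiLC peaks) and at 14 Naive lncRNA peaks (3.97%, against 3.20% of all Naive peaks). The extreme was AY036118 in Naive, picked out for this, with a fold of 1.97 at 40.8 times the genome-wide background. Gm52861 had 1.61 in EpiLC at 17.5 times and 2.32 in Naive at 18.1 times. Without the peaks above 3 times, chosen as a limit after seeing the data, 94 EpiLC and 339 Naive peaks were left, with median folds of 3.78 and 4.40 and a median ratio of 0.772 over pairs.

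Peaks on either side of the limits of the rule had folds within the quartiles of their list or close to them. Just inside 1 kb lay Gm34661 in EpiLC (989 bp, fold 4.13) and Gm12052 in Naive (999 bp, 4.14), and just outside lay BB283400 in EpiLC (1019 bp, 3.32) and a peak at Platr22 in Naive (1002 bp, 5.67). Just beyond 5 kb from a protein-coding gene end lay Gm35610 in EpiLC (5009 bp, 2.88) and Gm40325 in Naive (5068 bp, 4.82). Just within it, and so not counted, lay Gm52328 in EpiLC (4992 bp, 3.84) and a further peak at Snhg15 in Naive (4962 bp, 3.99).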

How the data were processed

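Pcbp1 ChIP and input DNA were sequenced from 1 library each in EpiLC and Naive cells (4 libraries). The authors deposited 1 peak list per condition, and MACS2, Bowtie2, fastp, Picard and the build GRCm38 (mm10) are named in the submitters' processing notes. No source used here gives the control used in calling. The fold that the authors deposited is a ratio of pileup to background. The authors also deposited a −log10 p-value and a −log10 q-value for every peak (lowest −log10 q 2.02 in both lists). The other deposited value used is the summit's distance from the peak start, and the deposited score was not used.

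No source used here gives read totals. Summit pileup and background were solved from fold, read as (pileup + 1) / (background + 1), and the Poisson p-value, which matched within 0.001 for 100% of peaks. Poisson and exact binomial intervals (95%) cover counting error only. On simulated data, pileups, the distance rule and overlaps were each returned in 100% of 1000 cases.

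Gene ends, strands and promoter windows came from RefSeq tables of GRCm38.p6, on placed nuclear chromosomes. Peaks overlapped when they shared at least 1 bp, and the highest fold was used where several did. The median ratio over pairs carries an order-statistic interval. Computation used scipy 1.17.1, numpy 2.4.6 and pandas 2.3.3 on Python 3.11.15, with matplotlib 3.10.9 for figures. The lncRNA peaks, gene lists and motifs were chosen with earlier results of these data known. Named in the text were the 12 highest peaks of each list, the 12 strongest pairs, peaks at listed genes or within 50 kb of listed protein-coding genes, lncRNA genes with 3 or more peaks and those at the limits of the rule. No test between conditions was possible with a single library of each. Other distances, thresholds and scalings were tried.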

Additional observations from a re-analysis of the deposited data

How the results depend on the processing

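The count of lncRNA peaks follows the distance allowed. With 500 bp there were 69 in EpiLC and 216 in Naive (206 genes in Naive), and with 2 kb there were 564 in Naive (495 genes). A −log10 q of at least 5 raised the Naive median fold to 4.80. With the Naive list shortened to the length of the EpiLC list, 94 Naive peaks at 95 genes remained, with a median fold of 6.62; 28.6% of EpiLC lncRNA peaks then overlapped a Naive peak, and 29.8% of Naive ones an EpiLC peak. With an overlap of 50% of both peaks, these shares were 35.2% in EpiLC and 10.2% in Naive. Shares over all peaks are not given for these settings, so the changes cannot be called particular to lncRNA peaks. The median EpiLC to Naive ratio was 0.924 on scaled pileups. Of 73 values under alternatives, the other 59 stayed within 1.5 times the reported count or within the error of the reported value, among them all those without high-background peaks, an alternative added after seeing the data. No paired analysis was possible because each condition had 1 ChIP library and no test was run. Depth limits what a missing peak can show, and EpiLC depth was not matched to Naive.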
